A study of Mus musculus with 8 samples.

Results

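The genes described here encode subunits of the mitochondrial respiratory chain and of ATP synthase, measured in mouse chondrocytes in which the microRNA gene Mir140 had been altered. They were chosen by symbol: every gene whose symbol starts with Ndufa, Ndufb, Ndufc, Ndufs, Ndufv, Uqcr, Cox4, Cox5, Cox6, Cox7, Cox8 or Atp5, and Sdha, Sdhb, Sdhc, Sdhd and Cyc1, without the Ndufaf assembly factors and without symbols that contain -ps. The rule used no measured value. It found 87 of the 18501 genes listed, of which 83 passed the filter on low counts and were tested among 14359 genes. By prefix, 40 belong to complex I, 4 to complex II, 9 to complex III, 17 to complex IV and 17 to complex V. The prefixes also take in genes that are not established subunits, among them Ndufa4l2, a paralogue of Ndufa4, and Atp5s.

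The cells were chondrocytes from rib cartilage of CD1 mice, all 10 days old, released with collagenase, plated and lysed for RNA. In the CG line the mutants carried a mutation in the seed region of the 3p arm of miR-140. In the CT line (C>T in the labels) the mutants carried a C>T base change, whose position the labels do not give. The design text describes both mutations as routes to overexpression of the 5p arm, and each line came with wild types of its own. Each of the 4 groups had 2 libraries, numbered 1 and 2 in the labels, and the labels name no floxed allele, Cre or drug in any group. The labels do not tell separate animals or cultures apart, so p-values here reflect only how much the libraries vary, in part perhaps for technical reasons. In all groups but the CG mutants, Y-linked counts given below show that this spread includes animals of different sex.

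Total counts ran from 26536868 to 28678641 per library. The first principal component of all genes, with 64.5% of the variance, separated the lines, and the second, with 12.2%, set CG mutant 1 apart. The labels name no batch, so line cannot be told apart from any batch that went with it. The 12 chondrocyte markers of the labelled cell type summed to 33230 and 32200 CPM (counts scaled to a common library size with TMM factors) in the CG wild types, to 53810 and 31270 in CG mutants 1 and 2, and to 40610 to 60360 in the CT line. Erythroid markers summed to 2.99 to 16.9 CPM in the CG line and to 1004 to 2704 in the CT line, and endothelial markers to 12.7 to 39.1 and 58.7 to 108.6. Y-linked Ddx3y had 2 and 2511 counts in the CG wild types, 2231 and 2360 in the CG mutants, with CT wild types at 3669 and 10 and CT mutants at 3512 and 30. A Y-linked transcript at or near 0 in 1 library and abundant in the other means that the libraries of these 3 groups, all but the CG mutants, came from animals of different sex. Wild types and mutants of the CG line thus also differ in their makeup by sex. In bulk RNA, fewer cells of a type and less RNA per cell cannot be told apart.

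The respiratory chain passes electrons from NADH through complex I, and from succinate through complex II, to coenzyme Q, complex III, cytochrome c and finally oxygen at complex IV. The proton gradient that complexes I, III and IV build drives ATP synthase, complex V. Most subunits come from nuclear genes, and a few complex IV subunits and complex I relatives exist as paralogues that differ between tissues or respond to low oxygen. Cartilage has no blood supply, and chondrocytes are known for a largely glycolytic metabolism.

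Transcripts of the chain were abundant in these cells. On the deposited FPKM scale, which divides by transcript length, the median member stood at 34.5 in complex I, 44.0 in complex II, 62.6 in complex III, 77.1 in complex IV and 86.5 in complex V, against 3.14 over 18500 genes with a value above 0. The highest of all members was Atp5b, the catalytic beta subunit of ATP synthase, with 284 to 368 FPKM over the 8 libraries. Atp5a1, the alpha subunit, followed at a mean of 203 FPKM. The highest of the other complexes were Cox8a at 170 FPKM, Ndufa4 at 132, Uqcr10 at 108 and Sdhb at 49.5. Ndufa4 is named for complex I and is now assigned to complex IV. Among members that passed the filter, the lowest FPKM in complexes II, III and V were those of Sdha at 29.9, of Uqcrfs1, the Rieske iron-sulfur protein, at 45.3, and of Atp5s at 1.51.

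The members below the filter were tissue isoforms and Ndufa11b. Cox7a1 and Cox8b, the heart and muscle forms of their subunits, had 8 and 6 counts over all 8 libraries, and the testis form Cox7b2 had 2. Ndufa11b had 21. These 4 genes were not tested, while their widespread counterparts Cox7a2, Cox8a, Cox7b and Ndufa11 had means of 48.9, 170, 33.1 and 9.19 FPKM. The 3 genes for the ring subunit c of ATP synthase stood close together, with Atp5g2 at 170 FPKM, Atp5g3 at 144 and Atp5g1 at 123. Of Cox7a2 and Cox7a2l, the latter an assembly factor of supercomplexes, Cox7a2l was the higher at 77.1 FPKM.

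Neither Mir140 mutation moved a respiratory chain gene past the threshold in edgeR. Of the 83 members tested, 0 passed an adjusted p of 0.05 between mutants and wild types of the CG line (edgeR quasi-likelihood test, Benjamini-Hochberg adjustment over 14359 genes), where 0.00696% of all genes passed. Between mutants and wild types of the CT line 0 members passed as well, again beside 0.00696% of all genes. At an unadjusted p under 0.05 the counts were 1 member in the CG line, where 11.4% of all genes lay, and 3 members in the CT line, where 5.11% lay. DESeq2 called 1 member in the CG line, Cox4i2, where it called 1.504% of all genes, and 0 in the CT line, where it called 0.139%, and limma on log2(FPKM + 1) called 0 in both. The median standard error of a member's log2 fold change was 0.15 in the CG line and 0.15 in the CT line, which sets the size of change the 2 libraries a group could resolve.

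Most members moved little in either line. In the CG line 81 of 83 members, and in the CT line 81 of 83, had a log2 fold change within 0.5 of 0, beside 84.6% and 89.5% of all genes. The member median was 0.07 in the CG line, with 62 members above 0 and 21 below, against a median of 0.00 over all genes. It moved with each CG library, and stood at -0.02 without CG mutant 1, 0.16 without CG mutant 2, 0.01 without CG wild type 1 and 0.14 without CG wild type 2. The CT median was 0.00, with 40 members above 0 and 43 below. That split was 7 above and 76 below without CT wild type 1, 72 and 11 without CT wild type 2, 55 and 28 without CT mutant 1, 17 and 66 without CT mutant 2, and 56 and 27 with library size alone in place of TMM scaling. By complex, the CG medians were 0.10 for complex I, 0.00 for complex II, 0.02 for complex III, 0.04 for complex IV and 0.05 for complex V, and the CT medians lay between -0.06 in complex IV and 0.03 in complex V.

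**Figure D1:**
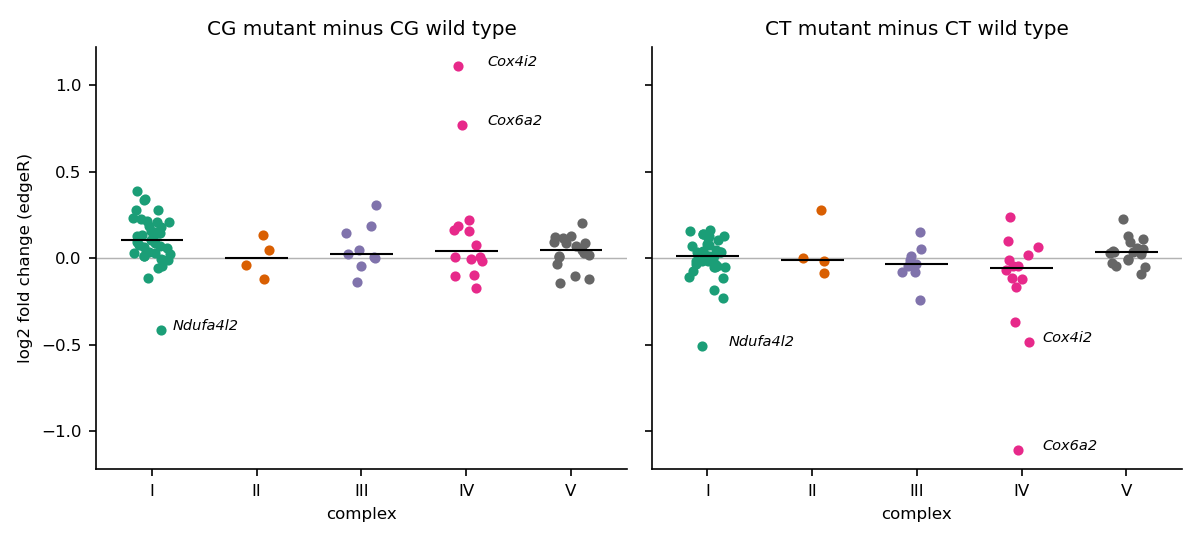
Log2 fold change of each of the 83 tested members (points) between mutants and wild types, by complex, in the CG line (left) and the CT line (right), with black bars at the median of each complex and a random horizontal spread. Members cluster around 0. Cox4i2 and Cox6a2 lie farthest above 0 in the CG line and are below 0 in the CT line. Ndufa4l2 is below 0 in both, at -0.42 in the CG line and -0.51 in the CT line, where it lies farther from 0 than Cox4i2. None of these genes passed the threshold in either line.

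None of the core subunits described here passed the threshold in either line. Ndufv1 carries the NADH-binding site of complex I, and its log2 fold change was 0.07 ± 0.11 (SE) in the CG line and -0.04 ± 0.11 in the CT line. Ndufs1, a further core subunit of complex I, was at 0.03 ± 0.09 in the CG line and at 0.14 ± 0.08 in the CT line. Sdha, the flavoprotein of complex II, had 84.1 and 93.1 CPM in CG wild types and 91.5 and 80.8 in CG mutants. In the CT line it had 64.9 and 76.4 CPM in wild types and 82.7 and 88.4 in mutants, which do not overlap. The CT difference was 0.28 ± 0.11 on the log2 scale, with an edgeR adjusted p of 0.958. Sdhb, its iron-sulfur partner, was at 0.05 ± 0.20 and -0.09 ± 0.20.

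In complex III, Uqcrc1, a core protein, was at 0.15 ± 0.12 in the CG line and -0.01 ± 0.12 in the CT line, and Cyc1, cytochrome c1, at 0.01 ± 0.13 and -0.04 ± 0.13. Uqcrfs1 had 51.0 and 50.6 CPM in CG wild types against 45.9 and 46.5 in CG mutants, and 62.4 and 69.8 in CT wild types against 59.7 and 52.1 in CT mutants. The mutants lay below the wild types in both lines. The log2 fold changes were -0.14 ± 0.10 and -0.24 ± 0.10, and the edgeR adjusted p-values 0.63 and 0.958. In complex IV, Cox5a was at 0.01 ± 0.13 and -0.07 ± 0.13. In complex V, Atp5a1 was at 0.03 ± 0.11 and -0.05 ± 0.11 and Atp5b at 0.01 ± 0.12 and -0.01 ± 0.12.

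Mutant and wild-type libraries without overlap were counted next. In the CG line both mutants lay above both wild types for 20 members, or 24.1%, beside 23.2% of all genes, and below them for 4 members, Cox7a2l, Uqcrfs1, Ndufa6 and Atp5c1, beside 22.5%. Both CT mutants lay above for 3 members, beside 17.2% of all genes, and below for 7, beside 16.3%. Those 7 were Uqcrfs1, Cox8a, Ndufc2, Ndufa4l2, Cox4i2, Cox6a2 and Cox6b2, named after their values were seen.

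The 2 largest shifts in the mutants were those of complex IV isoforms. Cox4i2 (Entrez 84682) encodes the form of subunit 4 that is known as inducible by low oxygen, while Cox4i1 is the widespread form. Cox4i2 had 3.8 and 3.75 CPM in CG wild types and 10.3 and 6.07 in CG mutants. CT wild types had 9.24 and 8.80 CPM of it, against 6.05 and 6.87 for CT mutants. Both CG mutants were thus above their wild types, and both CT mutants below theirs. The CG difference was 2.16-fold, or 1.11 ± 0.25 on the log2 scale (edgeR adjusted p = 0.237), and DESeq2 called it at an adjusted p of 0.0187. It was 0.68 without CG mutant 1 (edgeR adjusted p = 0.574) and 1.45 without CG mutant 2 (0.0105). CG mutant 1, which had the highest Cox4i2 level, was also the CG library with the highest chondrocyte marker sum, and the part of cell makeup in the result was not tested. The authors' deposited table gives a log2 ratio of 1.11 for it with a q-value of 0.157.

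The Cox4i2 difference in the CT line was -0.48 ± 0.24 (edgeR adjusted p = 0.958). Tested directly, the CG effect exceeded the CT effect by 1.59 ± 0.35 on the log2 scale, with an edgeR adjusted p of 0.707. Without CG mutant 2 this difference was 1.93 and its edgeR adjusted p 0.022. Cox4i1 stayed between 91.6 and 117 CPM in all 8 libraries, at -0.10 ± 0.12 in the CG line and -0.04 ± 0.12 in the CT line.

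Cox6a2 (Entrez 12862) encodes the heart and muscle form of subunit 6a, and Cox6a1 the widespread form. Cox6a2 had 1.34 and 1.60 CPM in CG wild types, 3.07 and 1.95 in CG mutants, with CT wild types at 0.599 and 0.986 and CT mutants at 0.359 and 0.372. As for Cox4i2, the mutants were above their wild types in the CG line and below them in the CT line. The log2 fold changes were 0.77 ± 0.35 in the CG line (edgeR adjusted p = 0.463) and -1.11 ± 0.43 in the CT line (0.958), and their difference was 1.88 ± 0.55 (0.922). The 4 CT libraries held only 11 to 29 counts of it.

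Among the other members by smallest p in the CG line, none of which passed, Uqcrb was at 0.31 ± 0.15, Ndufa5 at 0.39 ± 0.20 and Cox7a2l at -0.17 ± 0.09. In the CT line Cox6c was at 0.24 ± 0.13. Over all members, 0 passed in the test of the difference between the mutant effects, where 0.0209% of all genes passed, and 2 had an unadjusted p under 0.05, where 4.78% of all genes had one. DESeq2 and limma called 0 members in that test too. The median difference was 0.07, with 64 members above 0. With library size alone it was -0.02, with 35 above 0 and 48 below, where the median of all genes was -0.08. With limma on log2(FPKM + 1) it was also -0.02, with 36 above and 47 below, and without CT wild type 2 it was -0.08, with 23 above and 60 below.

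The lines themselves differed, and there the clearest change was in Ndufa4l2 (Entrez 407790), known as an inhibitor of complex I that hypoxia induces. It had 5.18 and 3.35 CPM in CG wild types and 1.79 and 4.58 in CG mutants, from 43 to 143 counts. In the CT line it had 43.6 and 35.0 CPM in wild types and 27.3 and 28.1 in mutants, from 830 to 1237 counts. Every CT library lay above every CG library. CT wild types were 9.18-fold higher than CG wild types, a log2 difference of 3.20 ± 0.36 (edgeR adjusted p = 0.000853), and CT mutants 8.62-fold higher than CG mutants, at 3.11 ± 0.37 (0.000899). The gap between mutants was 2.59 without CG mutant 1 and 3.94 without CG mutant 2, and it passed the threshold without any of the 8 libraries in turn, as did the gap between wild types. The authors' deposited table gives log2 ratios of 3.20 and 3.13 for these comparisons, with q-values of 7.09e-41 and 1.02e-14.

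Ndufa4, its widespread relative, had 43.3 to 59.8 CPM and did not separate the lines. As a share of the summed FPKM of both genes, Ndufa4l2 made up 3.15% ± 1.41 in the CG line and 23.0% ± 5.78 in the CT line (SD, n = 4 libraries each). The log2 ratio of Ndufa4l2 to Ndufa4 differed by 3.31 between the lines, with an exact two-sided permutation p of 0.0286, the smallest that 4 against 4 libraries allow, and a Benjamini-Hochberg value of 0.0381 over 4 isoform pairs. Each of these line comparisons pools wild types and mutants. Any measure without overlap between the lines reaches this p. On the CPM scale 23.7% of all genes lay higher in every CT library and 23.1% lower. The same holds for the Cox6a2 and Cox6b2 ratios below.

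**Figure D2:**
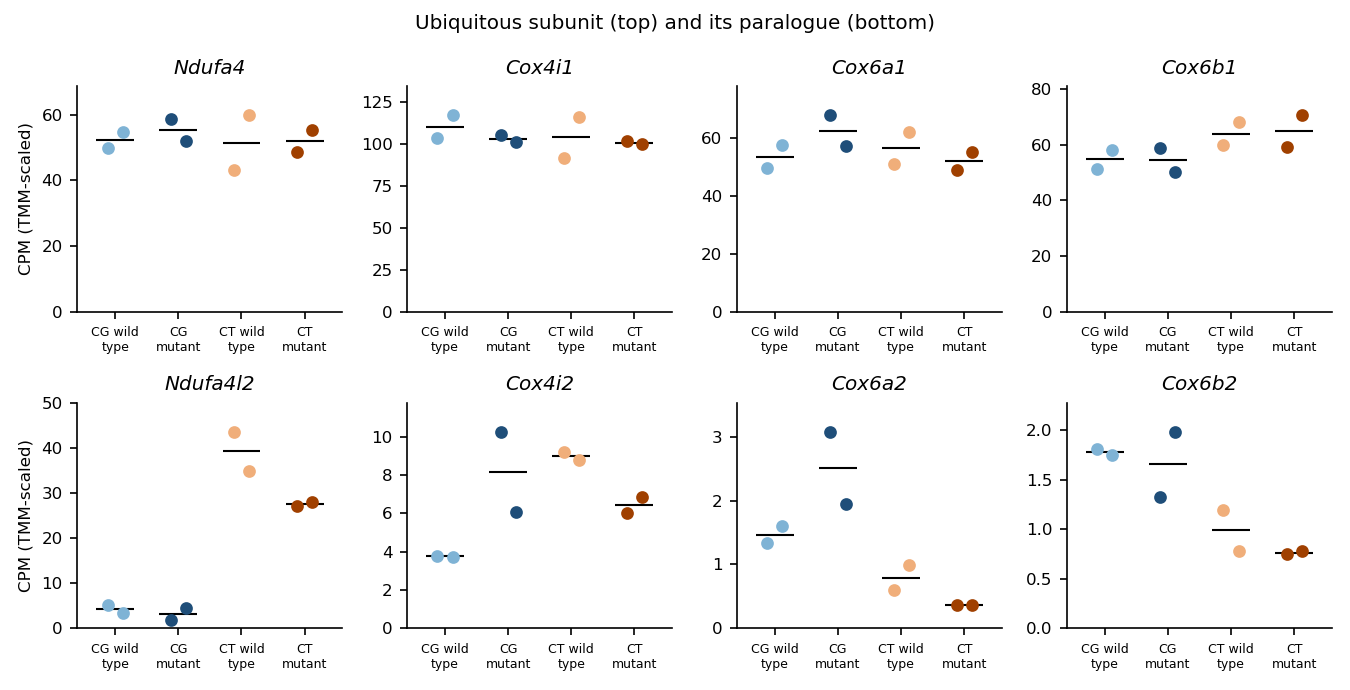
TMM-scaled CPM of 4 widespread members (top) and their paralogues (bottom) in each library (points), with bars at the mean of 2 libraries; each axis starts at 0 and has its own scale. Ndufa4l2 lies between 27.3 and 43.6 CPM in the CT line and at no more than 5.18 in the CG line, while Ndufa4, Cox4i1 and Cox6a1 overlap between the lines.

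The other paralogues moved in different directions. Cox4i2 was 2.39-fold higher in CT than in CG wild types, at 1.25 ± 0.25 on the log2 scale (edgeR adjusted p = 0.00768), and the call was lost without CG wild type 2 (0.054). Between the mutants of the lines it was at -0.34 ± 0.24 (0.306), and 0.09 without CG mutant 1. Its share of the Cox4i1 and Cox4i2 sum was 5.25% ± 2.72 in the CG line and 6.69% ± 1.44 in the CT line (SD, n = 4), and the log2 ratio did not separate them (exact permutation p = 0.286, the same after adjustment).

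Cox6a2 was lower in the CT line. The log2 difference was -0.88 ± 0.38 between wild types (edgeR adjusted p = 0.108) and -2.76 ± 0.40 between mutants (0.00188), where CG mutants were 6.78-fold higher. Its share of the Cox6a1 and Cox6a2 sum was 2.55% ± 0.626 in the CG line and 0.803% ± 0.326 in the CT line (SD, n = 4, exact permutation p = 0.0286, adjusted 0.0381). Cox6b2, the testis form of subunit 6b, had 1.33 to 1.98 CPM in the CG line and 0.752 to 1.20 in the CT line, without overlap. It was at -0.85 ± 0.34 between wild types (edgeR adjusted p = 0.089) and at -1.11 ± 0.35 between mutants (0.039), a call that DESeq2 did not make (adjusted p = 0.101) and that was lost without either CT mutant, either CG wild type or CG mutant 2. Its share of the Cox6b1 and Cox6b2 sum was 3.01% ± 0.679 in the CG line and 1.26% ± 0.353 in the CT line (SD, n = 4, exact permutation p = 0.0286, adjusted 0.0381).

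Skeletal muscle markers stood beside the Cox6a2 difference. The 18 markers summed to 29.1 to 104 CPM in the CG line and to 21.7 to 25.9 in the CT line. Of these, 6 had under 10 counts in every library. Among the 11 tested, 1 was called higher and 4 lower in CT than in CG wild types, where 17.0% and 16.8% of all genes were. Between mutants 0 were called higher and 3 lower, where 17.9% and 18.2% of all genes were. CG mutant 1 had the lowest muscle sum of the CG line, 29.1 CPM, and the highest Cox6a2 level, 3.07 CPM. This is 1 library, and the part of muscle cells in the result was not tested. Brown fat markers, 3 genes, summed to 14.0 to 21.4 CPM in the CG line and 11.2 to 12.3 in the CT line. The genes went in different directions, with 1 called higher and 1 lower in the CT line in each line comparison. For Ndufa4l2, which pericytes are known to express, a list of 8 pericyte genes chosen after the data were seen summed to 1977 to 2735 CPM in the CG line and 1325 to 1440 in the CT line, nearly all from Cspg4. The pericyte gene Rgs5 had 1.58 to 7.29 CPM in the CG line and 1.73 to 3.43 in the CT line.

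Outside these paralogues the line differences were small. Between wild types 8 of the 83 members, or 9.64%, passed the threshold, Ndufa4l2 and Cox4i2 among them, where 33.7% of all genes passed. All 8 were higher in the CT line, where 17.0% of all genes were called higher and 16.8% lower. That direction rested on CT wild type 2, without which 7 members passed, 3 higher and 4 lower, the latter Ndufa11, Sdha, Ndufs4 and Uqcrq. Between mutants 9 members, or 10.8%, passed, Ndufa4l2, Cox6a2 and Cox6b2 among them, where 36.1% of all genes passed. Of these, 6 were higher in the CT line (17.9% of all genes) and 3 lower (18.2%), while without CG mutant 2 the split was 2 higher and 5 lower. Members kept to a narrow range, with 79 of 83 between wild types and 78 of 83 between mutants within 0.5 of 0 on the log2 scale, beside 61.5% and 58.9% of all genes.

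The calls depended on the scaling. With library size alone in place of TMM, the median of all genes moved to 0.13 between wild types and 0.20 between mutants, the share of calls that were higher in the CT line went from 50.3% to 65.8% and from 49.5% to 72.2%, and 17 and 18 members passed. The member median lay 0.12 above that of all genes between wild types and 0.02 above it between mutants with TMM, and 0.13 and 0.02 above it with library size alone. With TMM itself the member medians were 0.13 and 0.01.

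Besides Ndufa4l2, 3 members passed in both line comparisons, which share no library. Uqcrh, the hinge protein of complex III, had 28.6 and 29.0 CPM in CG wild types, 28.8 and 26.9 in CG mutants, with CT wild types at 38.1 and 40.9 and CT mutants at 36.0 and 38.7. The lines did not overlap and the mutants overlapped or lay next to their wild types. It was 1.37-fold higher in CT wild types (log2 0.46 ± 0.10, edgeR adjusted p = 0.00927) and 1.34-fold higher in CT mutants (0.42 ± 0.10, 0.0112). Atp5c1, the gamma subunit of the ATP synthase rotor, had 77.1 and 85.8 CPM in CG wild types, 75.0 in both CG mutants, with CT wild types at 97.8 and 110 and CT mutants at 101 and 114. Its line difference was 0.35 ± 0.10 between wild types (0.0338) and 0.52 ± 0.10 between mutants (0.00699).

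Atp5f1, subunit b of the ATP synthase stalk, had 77.2 to 79.9 CPM in the 4 CG libraries and 95.1 to 104 in the 4 CT libraries. Its line difference was 0.34 ± 0.08 between wild types (edgeR adjusted p = 0.0172) and 0.35 ± 0.08 between mutants (0.0133). The authors' deposited table gives q-values between wild types and between mutants of 0.0215 and 0.0442 for Uqcrh, of 0.056 and 0.00183 for Atp5c1 and of 0.0502 and 0.0285 for Atp5f1, so the last 2 genes miss 0.05 between wild types there. Atp5f1 counts were not whole in any library, so reads may have been divided with a near-identical copy. The same holds for Uqcrc2, Ndufa13, Ndufb4 and Ndufb4c, and for Atp5j in 2 libraries.

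The remaining calls between wild types were those of Uqcrfs1 at 0.38 ± 0.10 (edgeR adjusted p = 0.0213), Ndufv2 at 0.38 ± 0.12 (0.0482) and Atp5g3 at 0.35 ± 0.11 (0.0445), all higher in the CT line. Ndufv2 is an iron-sulfur subunit of the NADH-oxidising arm of complex I. Between mutants they were those of Sdhd, a membrane anchor of complex II, at 0.37 ± 0.10 (0.0258), of Uqcrc2, a core protein of complex III, at 0.36 ± 0.11 (0.0313), and of Ndufa11, an accessory subunit of complex I, at -0.46 ± 0.15 (0.0476). Every call named in the line comparisons except those of Ndufa4l2, and of Cox6a2 between mutants, was lost without at least 1 of the 8 libraries. In the authors' deposited table Uqcrfs1 has a q-value of 0.0398 between wild types and Uqcrc2 one of 0.0442 between mutants.

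Calls that appear in 1 line comparison were not tested for a difference from the other beyond the test between the mutant effects, in which 0 members passed. The 4 shared calls are 50% of those between wild types and 44.4% of those between mutants. Of the 83 members, 65 had the same sign in both comparisons, beside 84.3% of all genes, and the log2 differences correlated across genes with Pearson's r of 0.831, beside 0.822 over all genes. Without Ndufa4l2, Cox4i2, Cox6a2 and Cox6b2 it was 0.798 over 79 members. Genes are not independent replicates, and this r is a description.

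**Figure D3:**
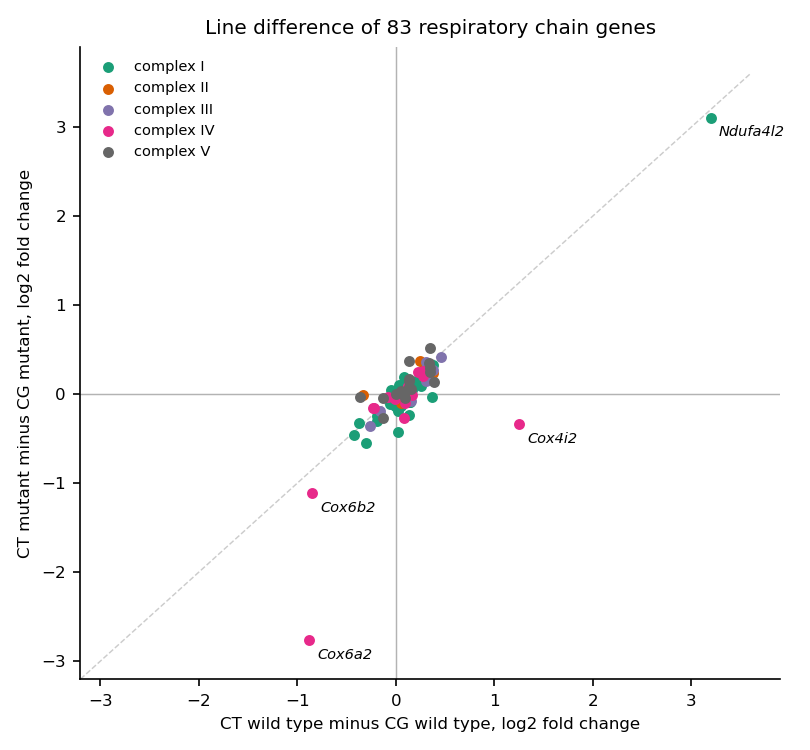
Log2 difference between the CT and CG lines for the 83 tested members (points, coloured by complex), between wild types (horizontal axis) and between mutants (vertical axis); the dashed line marks equal values. Most members lie within 0.5 of 0 on both axes, Ndufa4l2 lies near 3 on both, and Cox4i2 is above 0 between wild types (1.25) and below 0 between mutants (-0.34).

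Taking wild types and mutants of a line as 4 libraries, every CT library lay above every CG library for 13 members, beside 23.7% of all genes, and below for 9, beside 23.1%. The 9 lower members were Ndufa1, Ndufa11, Ndufa13, Ndufs4, Ndufv1, Uqcrq, Cox6a2, Cox6b2 and Atp5s, named after their values were seen. By complex, the median difference between wild types was 0.08 in complex I, 0.15 in complex II, 0.30 in complex III, 0.09 in complex IV and 0.14 in complex V. Between mutants the medians were -0.03, 0.12, 0.15, -0.08 and 0.08 in that order.

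Members also moved together between libraries of the same group. In CT wild type 2, 78 of 83 members were higher than in CT wild type 1, with a median log2 ratio of 0.30. In the CG wild types 66 members, and in the CT mutants 71, were higher in library 2, and in the CG mutants 76 were higher in library 1. Over all genes 50.2% were higher in library 2 of the CG wild types, 48.1% in the CG mutants, 49.9% in the CT wild types and 50.8% in the CT mutants. Numbers of libraries mark no order, and members of 1 library share its RNA. In both CT groups the library with the higher members was the one nearly without Ddx3y, and in the CG wild types it was the one with Ddx3y. Both CG mutants had Ddx3y. The part of sex in these shifts was not tested.

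Summed over the 87 members, the level was 3849 and 4188 CPM in CG wild types, 4418 and 3901 in CG mutants, with CT wild types at 3982 and 4758 and CT mutants at 4194 and 4473. The sums of the groups overlap, except that both CT mutants lay above both CG wild types. Libraries that were high in 1 complex were high in others: complex I summed to 903 and 1106 CPM in CT wild types 1 and 2, complex III to 501 and 604, and complex V to 1759 and 2072. Leaving out CT wild type 2 took the member median of the line difference between wild types from 0.13 to -0.06, and leaving out CT wild type 1 took it to 0.28. The number of members called between wild types was 2 without CG wild type 1, 1 without CG wild type 2, 15 without CT wild type 1 and 7 without CT wild type 2, against 8 with all libraries. The share of all genes called was 16.6%, 14.5%, 23.97% and 21.05% in that order, against 33.7%. Between mutants the number was 4 without CT mutant 1, 2 without CT mutant 2, 6 without CG mutant 1 and 7 without CG mutant 2, against 9, beside 19.98%, 19.8%, 25.9% and 32.0% of all genes, against 36.1%.

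**Figure D4:**
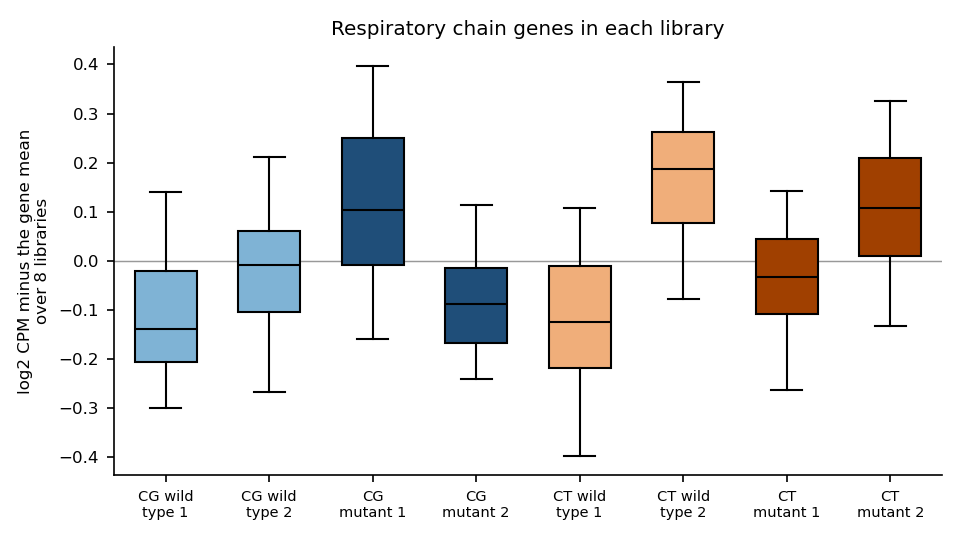
Log2 CPM of the 83 tested members in each library, minus each gene's mean over the 8 libraries; boxes span the quartiles with the median as a line, and whiskers reach the 5th and 95th percentiles. The medians run from -0.14 in CG wild type 1 to 0.19 in CT wild type 2, and the 2 libraries of each group differ.

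Genes known to be induced by hypoxia-inducible factor (HIF), the transcription factor to which Ndufa4l2 and Cox4i2 are known to respond, were higher in the CT line. Of 20 such genes, 14 were called higher in CT than in CG wild types, where 17.0% of all genes were, and 14 in CT than in CG mutants, where 17.9% were. Of these, 13 were called in both. The medians over all 20 were 0.79 and 0.82 on the log2 scale. Slc2a1, a glucose transporter gene, passed between wild types and Adm, the adrenomedullin gene, between mutants. Bnip3, a mitophagy receptor gene, had 17.3 to 27.0 CPM in the CG line and 120 to 150 in the CT line (log2 difference 2.78 between wild types, edgeR adjusted p = 0.00011). Pdk1, the kinase that restrains pyruvate entry into mitochondria, had 16.1 to 26.1 and 51.3 to 79.9 CPM (2.13, 0.000329). None of the 20 passed in either mutant effect, where 0.00696% of all genes passed in each line. This list was drawn up with earlier results of these libraries known and is not independent evidence of its direction.

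**Figure D5:**
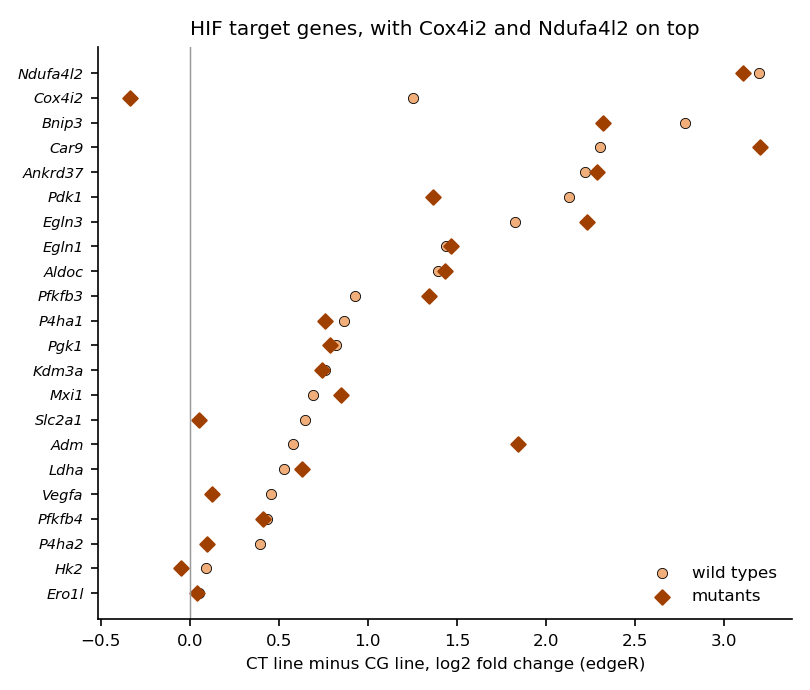
Log2 difference between the CT and CG lines between wild types (circles) and between mutants (diamonds) for 20 HIF target genes, ordered by the former, with Cox4i2 and Ndufa4l2 in the top rows. Ndufa4l2 lies above 3 in both comparisons, Cox4i2 at 1.25 and -0.34, and 19 or more of the 20 targets lie above 0 in each.

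Other mitochondrial gene lists gave calls in both directions, to be read beside the 17.0% of all genes called higher and 16.8% called lower between wild types, and the 17.9% and 18.2% between mutants. Of 78 mitochondrial ribosomal protein genes, 13 (16.7%) were called higher and 1 lower in CT than in CG wild types, and 8 (10.3%) higher and 5 lower between mutants, with medians of 0.12 and 0.02. Neither share of higher calls exceeded that of all genes. Mrps2 had 58.6 to 67.4 CPM in the CG line and 104 to 114 in the CT line (log2 0.68 ± 0.09 between wild types, edgeR adjusted p = 0.0012). Of 47 assembly factors, which build the complexes, 3 were higher and 2 lower between wild types and 2 higher and 0 lower between mutants. Lyrm7, which acts in the assembly of complex III, was at 1.53 ± 0.29 between wild types (0.00629) and Foxred1, of complex I assembly, at -0.61 ± 0.12 (0.00759). Of 13 citric acid cycle genes, 2 were higher in each line comparison, among them Suclg2 between wild types at 0.63 ± 0.16 (0.0192).

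The calls among genes of coenzyme Q and electron carriers were all lower in the CT line. Of 17 genes for electron carriers and coenzyme Q synthesis, 0 were higher and 3 (17.6%) lower between wild types, beside 16.8% of all genes called lower, and 0 higher and 5 (29.4%) lower between mutants, beside 18.2%, with medians of -0.10 and -0.44. Coq10b had 73.7 to 86.3 CPM in the CG line and 49.7 to 57.8 in the CT line (log2 -0.64 ± 0.09 between wild types, edgeR adjusted p = 0.00171). Of 18 biogenesis regulators tested, 1 was higher and 3 lower between wild types and 3 higher and 4 lower between mutants. Ppargc1b, a coactivator of mitochondrial biogenesis, had 3.21 to 5.65 CPM in the CG line and 9.45 to 11.96 in the CT line (0.97 ± 0.23 between wild types, 0.015). In the mutant effects 0 genes of any of these lists passed, where 0.00696% of all genes passed in each line. Counts of 0 in lists of this size therefore say little about them. Genes of the mitochondrial DNA were not analysed here.

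Matches to the 3p seed of miR-140, which the CG mutation alters, were few among the members. The mature sequence is shown with its seed, bases 2 to 8, in capitals, followed by the matches in members' 3′ untranslated regions with the complementary 7 bases in capitals and 10 bases on either side.
mmu-miR-140-3p: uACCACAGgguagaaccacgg
Atp5g1: caagatggctCTGTGGTgtaaaggctt
Sdhc: tgcccaaggcCTGTGGTtcagtcccca
Uqcrq: cctgcaggggCTGTGGTagctatgcat
The miRNA sequence is that of RefSeq on GRCm38.p6 (chr8:107551288-107551308, plus strand), and the untranslated regions are those of GENCODE on GRCm38. A match was found in 3 of 83 members with an untranslated region of at least 50 bases, or 3.61%, and in 19% of 17487 genes. The members' regions are short, with a median of 275 bases against 1202. In the CG line the 3 genes were at 0.05 ± 0.14 (Atp5g1), 0.13 ± 0.21 (Sdhc) and 0.02 ± 0.13 (Uqcrq), with edgeR adjusted p-values of 0.916, 0.837 and 0.965. A match is a description of sequence and not a tested site. The 5p arm is named only.

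The promoters of the members were searched for 3 motifs known from nuclear genes of the chain. They were NRF1 (GCGCA, any base, then GCGC), the ETS motif (CCGGAAG) that NRF2 binds, and YY1 (AAGATGG), on both strands of the 250 bases before each RefSeq start. NRF1 was found in 13 of the 69 members with an entry, or 18.8%, and in 7% of 14482 genes; ETS in 12, or 17.4%, and in 12%; and YY1 in 1, or 1.45%, and in 4.9%. Uqcrh, which differed between the lines, and Cox6a1, which did not, are shown from 5′ to 3′ on the strand of the gene, with matches in capitals and the last base next to the start.
Uqcrh: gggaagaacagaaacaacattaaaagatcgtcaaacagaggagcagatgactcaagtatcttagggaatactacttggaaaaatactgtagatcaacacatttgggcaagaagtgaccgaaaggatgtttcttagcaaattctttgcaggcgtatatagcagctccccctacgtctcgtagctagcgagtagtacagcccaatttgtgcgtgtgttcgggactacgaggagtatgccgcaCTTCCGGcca
Cox6a1: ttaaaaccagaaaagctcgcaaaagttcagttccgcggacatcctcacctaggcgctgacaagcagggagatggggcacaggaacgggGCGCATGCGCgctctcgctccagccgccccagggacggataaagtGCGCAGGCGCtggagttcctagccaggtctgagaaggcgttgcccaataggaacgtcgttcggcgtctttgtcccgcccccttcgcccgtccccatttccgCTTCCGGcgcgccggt
The first is chr4:116075071-116075320 on the minus strand of GRCm38.p6 and holds an ETS match that begins 10 bases before the start. The second is chr5:115348959-115349208 on the minus strand and holds NRF1 matches that begin 162 and 117 bases before the start and an ETS match that begins 16 bases before it. In both, the ETS match lies on the opposite strand and so reads as its reverse complement. Sdha and Sdhd also held NRF1 matches, and Ndufa4l2, Cox4i2 and Cox6a2 are named only. A link between these motifs and the shared movement of members between libraries was not tested.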

How the data were processed

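RNA from 8 libraries in 4 groups of 2 was analysed. HISAT2 2.0.4 and mm9 are listed per the submitters' processing notes; counter and annotation: not given in the sources used here. Per the file headers, the deposited table holds, for each gene and library, an estimated count without normalization and an FPKM value; estimated counts were rounded before tests. Log2 ratios and q-values in the authors' deposited comparisons were quoted for the 7 members listed there.

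The test was edgeR 4.0.16 (quasi-likelihood F test, R 4.3.3) with 4 group means over all libraries, TMM factors, the default low-count filter and Benjamini-Hochberg adjustment at 0.05, tested on simulated data. Standard errors are |log2 fold change| / √F. Alternatives were DESeq2 1.42.0, limma 3.58.1 on log2(FPKM + 1) and log2(FPKM + 0.1) with and without a minimum mean FPKM of 1, other scalings, no filter, fewer groups in the fit, a replicate block and leaving out each library. Isoform ratios were compared with exact permutation tests (scipy 1.17.1).

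Members, gene lists and tests were chosen with earlier results of these data known. The genes named were isoform pairs, core subunits, the highest and lowest member of each complex, members past the threshold (or, where fewer than 5 passed, the 5 smallest p-values), up to 3 genes with the smallest p-values of other lists, and members with a seed match. A gene that this rule names is not reported here. Promoter and miRNA sequences came from RefSeq tables and untranslated regions from GENCODE; their GRCm38 build differs from mm9, so they were joined by gene name. On simulated counts for the CG comparison, over 14177 genes, 77.8% of 2-fold and 98.9% of 4-fold changes were recovered. For the line difference in wild types the shares were 65.7% and 96.9%. The changed genes were drawn from the better expressed ones, and the groups otherwise shared a common mean without an outlying library. These shares therefore do not give the power of the comparisons in the real libraries.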

Additional observations from a re-analysis of the deposited data

Results flagged for a closer look

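For Cox4i2 both mutants lay above both wild types in the CG line and below both in the CT line. The difference between the mutant effects was 1.59 on the log2 scale, and its edgeR adjusted p of 0.707 did not pass the threshold.

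Cox6a2 had the same arrangement of libraries. The difference between the mutant effects was 1.88 on the log2 scale, with an edgeR adjusted p of 0.922.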

How the results depend on the processing

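The number of members called changed with scaling and unit. Between wild types of the lines it was 17 with library size alone, 21 with limma on log2(FPKM + 1), 21 with a pseudocount of 0.1 and 13 without the FPKM filter, against 8, where 34.0%, 38.6%, 38.2% and 23.8% of all genes were called, against 33.7%. Between mutants it was 18, 23, 21 and 15 in that order, against 9, where 39.6%, 44.9%, 44.6% and 27.8% of all genes were called, against 36.1%, and the member median was 0.23, 0.24, 0.25 and 0.24, against 0.01. DESeq2 called 1 of 83 members in the CG mutant effect, Cox4i2, beside 1.504% of all genes.

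Leaving out 1 library at a time, the calls ranged from 1 to 15 between wild types, from 2 to 11 between mutants, from 0 to 1 in the CG effect, from 0 to 1 in the difference of the mutant effects and were 0 throughout in the CT effect. The member medians ranged from -0.055 to 0.28, from -0.07 to 0.13, from -0.02 to 0.16, from -0.081 to 0.21 and, in the CT effect, from -0.13 to 0.16. Where a group kept 1 library, it was assumed to vary like the other groups.

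Between wild types, without CG wild type 1 or CG wild type 2 the calls of Uqcrh, Atp5c1, Atp5f1, Uqcrfs1, Atp5g3 and Ndufv2 were lost, and without CG wild type 2 that of Cox4i2. Without CT wild type 2 the calls of Atp5c1, Atp5f1, Uqcrfs1, Atp5g3 and Ndufv2 were lost and 4 calls lower in the CT line were gained. Between mutants, without CT mutant 2 the calls of Uqcrh, Atp5c1, Atp5f1, Sdhd, Uqcrc2, Ndufa11 and Cox6b2 were lost.

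Labels share replicate numbers without saying what these mark. In the CT line the number went with sex. Ddx3y had 3669 and 10 counts in CT wild types 1 and 2, and 3512 and 30 in CT mutants 1 and 2. Same-numbered libraries deviated together with a correlation of -0.0892 in the CG line and 0.248 in the CT line. The main test took no pairing and no term for sex, so a difference of sex within a group stayed within its spread. Both CG mutants had Ddx3y, while each other group held libraries of different sex. In comparisons with the CG mutants, sex can therefore also enter the difference between group means. With a replicate block the calls were 0 in the CG effect, the CT effect and their difference, beside 0.007%, 0.028% and 0.042% of all genes. They were 7 in each line comparison, beside 30.6% of all genes between wild types and 33.4% between mutants. Library 1 was the one with Ddx3y in the CT groups and the one nearly without it in the CG wild types. Both CG mutants had Ddx3y, so this block is not a test of sex. The cause of the changes in calls between settings was not tested. Genes with few counts, such as Cox6a2 and Cox6b2, carry standard errors of 0.33 or more in the mutant effects.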
